A study of Mus musculus with 11 samples.

Results

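Tumour cell samples labelled as recurrent mammary tumour (4 samples) were compared with samples labelled as primary tumour (4 samples), which makes 8 of the 11 arrays of the study. The arrays were chosen by the sample titles alone, and all 23835 genes that could be named on the array were compared. The cells were of genotype MMTV-rtTA;TetO-Wnt1, in which the mammary tumour virus promoter drives a doxycycline-dependent activator and the activator drives a Wnt1 transgene. They were labelled with H2B-eGFP, a fluorescent histone that marks the nucleus, and had been grown orthotopically, at the site of the mammary gland, in female nu/nu mice, which lack a thymus and so most T cells, on doxycycline. The 4 primary samples were labelled as untreated primary tumours. The 4 recurrent samples were labelled with the treatment Wnt1 inhibition, that is tumours that had grown back after doxycycline had been withdrawn and the transgene switched off. The other 3 arrays held residual lesion cells taken 28 days after withdrawal, and their values are given beside some genes for orientation. The titles describe the samples as GFP-positive cells, no age is given, and the series title names the cells Wnt1-Prim1. The labels leave unsaid whether each sample had an animal of its own, so every p-value reflects only how far these samples spread, and that spread may be technical.

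Wnt1 is a secreted growth factor that acts through Frizzled receptors and beta-catenin. Its forced expression in the mouse mammary gland causes tumours that hold luminal and basal epithelial cells. When the ligand is withdrawn such tumours regress, and tumours that later grow back may do so with or without renewed Wnt signalling. Epithelial cells hold to each other through junction proteins such as claudins and cadherins, whereas mesenchymal cells make fibrillar collagen and small leucine-rich proteoglycans, proteins that bind and space collagen fibres.

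All values are log2 signals after robust multi-array averaging (RMA), so a difference of 1 is a 2-fold change, and the values of a group are listed in the order of replicates 1 to 4. Array medians lay between 4.29 and 4.38 on the 8 arrays. Pearson correlations over all genes were 0.983 to 0.989 between primary arrays, 0.968 to 0.980 between recurrent arrays and 0.965 to 0.977 between the groups. As a measure of background, the 95th percentile of the 1066 olfactory receptor genes, which mammary cells are not known to use, had a median of 4.05 over the arrays. The Wnt1 probe set read 3.04, 3.07, 2.98 and 3.05 on the primary arrays and 2.89, 3.02, 3.05 and 3.26 on the recurrent arrays. It lay under the olfactory level in both groups, including the tumours that carried the active transgene, so it did not check the labels. Of the defining epithelial markers, Krt8 read 10.00 to 10.15 on primary and 9.38 to 10.16 on recurrent arrays, and Krt18 read 10.13 to 10.56 and 8.95 to 10.59. Epcam, the epithelial adhesion molecule, read 3.14 to 3.45 and 3.32 to 3.45, under the olfactory level on all 8 arrays, and the basal keratin Krt5 was near that level at 3.71 to 3.97 and 3.97 to 4.22. Vim, the intermediate filament of mesenchymal and basal cells, was among the brightest genes on every array, at 12.86 to 12.93 and 12.68 to 12.89. The keratin 8 and 18 signal was thus present in both groups, whereas Epcam signal was not seen in either.

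Between recurrent and primary cells 430 genes passed the test at an adjusted p under 0.05, which is 1.8% of those tested (limma's moderated test, Benjamini-Hochberg adjustment over all genes). Of these 195 were higher in the recurrent cells (0.818%) and 235 were lower (0.986%), and 155 of the higher and 111 of the lower genes differed at least 2-fold. The median difference over all genes was -0.01. Counts of called genes in the lists that follow stand against these shares, and all list medians against this median. For 426 of the 430 genes the 4 recurrent and the 4 primary values did not overlap, and over all genes tested such separation was seen for 2151 (9.02%). The calls were sensitive to the number of primary arrays: 207, 225, 211 and 203 genes passed without primary array 1, 2, 3 or 4, and 340 to 420 passed when a recurrent array was left out. Centring each array on its median gave 177 higher and 323 lower genes.

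Genes that differed on every recurrent array were separated from those that differed on some. A gene was counted as shared when it passed the test and all 4 recurrent arrays lay at least 1 log2 unit beyond the whole primary range. This held for 56 higher genes (0.235% of all genes) and 47 lower genes (0.197%). Just inside this distance lay Emilin1, with a gap of 1.00 between the groups, and just outside it lay Upp1, with a gap of 0.99. A gene was counted as one of some arrays when 1 to 3 recurrent arrays lay at least 2 log2 units beyond the primary range while at least 1 other recurrent array lay less than 0.5 beyond it. This held for 152 genes in the higher direction (0.638%) and 55 in the lower (0.231%), of which 1 gene counted in both directions and 6 also passed the test. The recurrent arrays differed more among themselves than the primary arrays did: 475 genes had a standard deviation above 1 over the recurrent arrays, and 76 over the primary arrays.

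**Figure D1:**
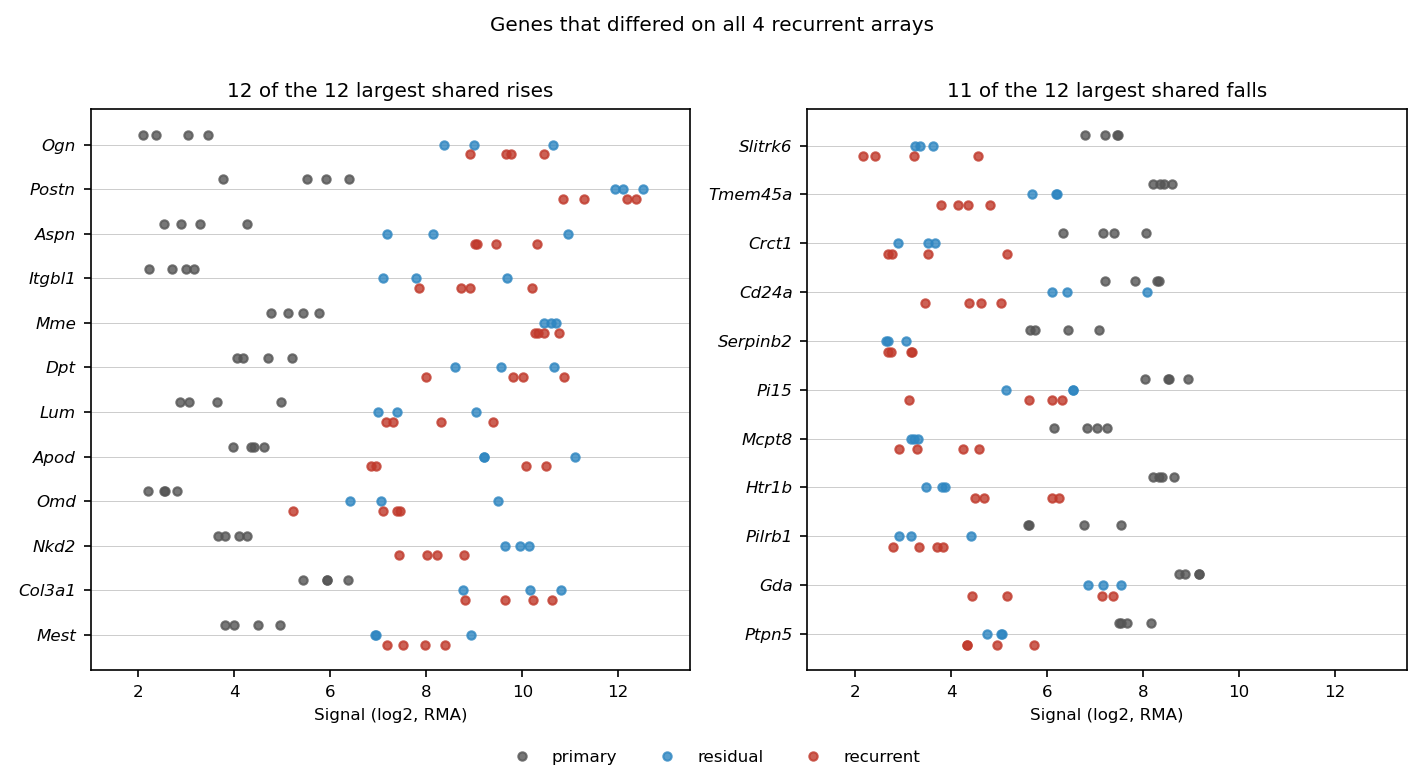
Log2 signal (RMA) on each array of the 12 genes with the largest shared rise (left) and 11 of the 12 with the largest shared fall (right); each point is 1 array of the primary (n = 4), residual (n = 3) or recurrent (n = 4) group. By the rule that chose these genes, the recurrent points lie at least 1 log2 unit beyond the primary points in each. Examples are Ogn (2.09 to 3.45 against 8.92 to 10.45) and Gda (8.75 to 9.17 against 4.43 to 7.37).

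Of the 12 largest shared rises 4 were small leucine-rich proteoglycans, and Ogn was the largest of all. Ogn, Omd and Aspn, which encode osteoglycin, osteomodulin and asporin, are neighbours on chromosome 13, and all 3 rose on all 4 recurrent arrays. Their promoter windows (250 bases before to 50 bases after the gene start, RefSeq, GRCm38.p6, plus strand) are printed because these neighbouring genes moved together: Aspn at chr13:49544193-49544492, Omd at chr13:49582212-49582511 and Ogn at chr13:49607765-49608064. Capitals mark the core of the site bound by TCF and LEF, the DNA-binding partners of beta-catenin (CTTTGA or its reverse complement).
Aspn: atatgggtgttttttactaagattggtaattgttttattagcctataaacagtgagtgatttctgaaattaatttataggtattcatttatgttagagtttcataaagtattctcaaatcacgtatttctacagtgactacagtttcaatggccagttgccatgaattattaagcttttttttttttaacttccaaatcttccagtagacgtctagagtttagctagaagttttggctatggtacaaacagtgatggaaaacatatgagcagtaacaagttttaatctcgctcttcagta
Omd: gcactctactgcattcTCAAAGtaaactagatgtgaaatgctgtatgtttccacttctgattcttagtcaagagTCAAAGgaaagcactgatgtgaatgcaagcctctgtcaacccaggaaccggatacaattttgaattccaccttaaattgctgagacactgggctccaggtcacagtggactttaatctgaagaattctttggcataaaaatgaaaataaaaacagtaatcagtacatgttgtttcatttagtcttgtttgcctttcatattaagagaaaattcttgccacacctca
Ogn: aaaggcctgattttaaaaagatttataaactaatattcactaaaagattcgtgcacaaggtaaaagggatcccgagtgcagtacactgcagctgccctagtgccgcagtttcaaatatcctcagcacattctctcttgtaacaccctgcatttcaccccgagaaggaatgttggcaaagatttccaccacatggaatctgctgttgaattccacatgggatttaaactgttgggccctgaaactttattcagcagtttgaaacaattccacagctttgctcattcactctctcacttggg
The Omd window held this core at 2 places, with first bases at -234 and -176 from the gene start, on the minus strand, and the Aspn and Ogn windows held none. The core was found in 16.0% of the 32851 promoter windows of the reference, in 6 of 49 windows of the shared higher genes and in 6 of 42 windows of the shared lower genes. The letters CACCTG, an E-box read by Snail-family and other factors, were found on either strand in 20.2% of all windows, in 6 of the 49 and in 12 of the 42, and never overlapped a TCF/LEF core. None of the 3 windows held an E-box. Of the 56 shared higher and 47 shared lower genes, 38 and 36 had a window. A match of letters shows neither binding nor its lack.

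Ogn read 3.03, 3.45, 2.09 and 2.36 on the primary arrays and 10.45, 9.76, 8.92 and 9.66 on the recurrent arrays. The primary values were those of background, and the log2 difference was 6.97 (SE 0.48, adjusted p = 2.73e-05). Aspn read 2.54, 4.27, 2.89 and 3.29 against 10.31, 9.05, 9.01 and 9.46, a difference of 6.21 (SE 0.68, adjusted p = 0.000902). Omd read 2.19, 2.54, 2.56 and 2.80 against 7.45, 7.09, 5.22 and 7.38, a difference of 4.26 (SE 0.63, adjusted p = 0.0055), with recurrent array 3 apart from the other 3. Lum, lumican, which lies on chromosome 10, read 3.06, 4.97, 3.64 and 2.87 against 9.40, 7.15, 8.30 and 7.30 (difference 4.40, SE 0.61, adjusted p = 0.00387). In all 4 genes the groups were at least 2 log2 units apart. The neighbours on either side of the cluster did not pass the test: Ecm2 differed by 0.95 (SE 0.45, adjusted p = 0.391) and Nol8 by 0.08 (SE 0.13, adjusted p = 0.871). Where a primary value lies within the range of the olfactory genes, the size of a fold rests on a background signal and is a rough figure.

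Of 40 matricellular and matrix glycoprotein genes 13 were higher (32.5%, against 0.818% of all genes), none was lower and 27 did not pass, with a median difference of 0.48 and 30 of 40 differences above 0. The mean of the list was 7.08 to 7.15 on primary and 8.35 to 8.47 on recurrent arrays, so the groups did not overlap. Postn encodes periostin, a matricellular protein of collagen-rich tissue. It read 5.91, 6.38, 5.52 and 3.76 on the primary arrays and 11.29, 10.85, 12.19 and 12.37 on the recurrent arrays, a difference of 6.29 (SE 0.51, adjusted p = 0.000127). The lowest recurrent array was 4.47 above the highest primary array. The members that did not pass included abundant ones: Mgp, matrix Gla protein, read 12.92 to 13.02 in the primary and 12.90 to 13.11 in the recurrent group, near the top of the array's range in both.

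Of 31 collagen genes 4 were higher (12.9%, against 0.818% of all genes), none was lower, and the median difference was 0.29. Col3a1 and Col1a1, which encode the chains of the fibrillar collagens of skin and tendon, were shared. Col3a1 read 5.93, 6.37, 5.43 and 5.92 against 9.64, 8.80, 10.22 and 10.62 (difference 3.90, SE 0.45, adjusted p = 0.00115). Col1a1 read 6.99, 6.52, 5.74 and 5.13 against 8.31, 8.11, 9.82 and 9.95 (difference 2.95, SE 0.52, adjusted p = 0.0156), with no overlap. Col6a1 rose by 1.41 (SE 0.23, adjusted p = 0.00988) and Col6a2 by 1.51 (SE 0.32, adjusted p = 0.0387), chains of the beaded microfibrils around cells. The call of Col1a1 ended without primary array 3 or 4 (adjusted p up to 0.0546) and that of Col6a2 without any of 7 arrays, all but recurrent array 2 (up to 0.114), and in a fit of the 8 arrays alone (0.0567). Collagen genes also stood among those of some arrays: Col12a1, a fibril-associated collagen, read 5.22, 6.16, 6.55 and 8.53 on the recurrent arrays against 4.67 to 4.97 on the primary arrays, and Col5a2 read 6.35, 5.97, 7.78 and 8.18 against 4.57 to 5.65. Neither passed the test (adjusted p = 0.162 and 0.0541), though Col5a2 passed without recurrent array 1 or 2 (adjusted p = 0.0489 and 0.0193).

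Among 32 proteases and inhibitors of the matrix 3 were higher and 1 was lower (12.5% called, against 1.8% of all genes), with a median of 0.02. Mmp2, gelatinase A, read 7.88, 7.99, 7.72 and 7.90 against 9.78, 9.51, 10.31 and 10.74 (difference 2.21, SE 0.32, adjusted p = 0.00463). Mmp9, gelatinase B, rose by 1.36 (SE 0.22, adjusted p = 0.0112), and Mmp11 by 1.31 (SE 0.25, adjusted p = 0.0225), the latter not without primary array 1, 3 or 4 (adjusted p up to 0.0748). Serpinb2, plasminogen activator inhibitor 2, fell from 5.64, 6.43, 7.09 and 5.74 to 2.68, 3.17, 3.18 and 2.75, that is to background on every recurrent array, a difference of -3.28 (SE 0.29, adjusted p = 0.000228).

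Several further large rises were of genes that connective tissue cells use. Of 22 fibroblast markers 9 were higher (40.9%, against 0.818% of all genes), all 9 of them shared, and none was lower, with a median difference of 1.02. Among the 9 were Lum, Col3a1, Col1a1 and Mmp2, already counted in the lists above, so the lists overlap and their shares are not independent. The list mean was 7.02 to 7.41 on primary and 8.44 to 9.04 on recurrent arrays. Dpt, dermatopontin, read 5.19, 4.70, 4.18 and 4.05 against 9.81, 7.99, 10.86 and 10.02 (difference 5.14, SE 0.57, adjusted p = 0.000955). Serpinf1, the secreted serpin PEDF, read 9.09, 9.46, 8.78 and 9.17 against 12.24, 11.97, 12.33 and 12.37 (difference 3.10, SE 0.17, adjusted p = 6.58e-06), well above background in both groups. The brightest marker of the list besides Serpinf1 and Mgp, S100a4, read 12.89 to 12.97 against 12.90 to 13.09 and did not pass (adjusted p = 0.913). The samples were isolated as GFP-positive cells, and no source used here gives the purity of the isolation, so expression by the tumour cells and a share of host fibroblasts cannot be told apart from these values. In a bulk sample a different number of cells of a type and a different amount of RNA per cell cannot be told apart either.

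The rises that followed in size had diverse roles. Itgbl1, an integrin beta-like secreted protein, read 2.21, 3.00, 3.15 and 2.69 against 8.90, 7.84, 8.72 and 10.20 (difference 6.15, SE 0.56, adjusted p = 0.000286), from background in every primary sample. Mme encodes neprilysin, also called CD10, a surface peptidase of myoepithelial and stromal cells. It read 5.12, 4.77, 5.42 and 5.77 against 10.46, 10.32, 10.27 and 10.77, a difference of 5.19 (SE 0.20, adjusted p = 3.5e-07). The 4 recurrent values lay close together, with an SD of 0.22. Apod, a lipid-binding apolipoprotein, split the recurrent arrays: it read 10.50 and 10.08 on arrays 1 and 2 and 6.96 and 6.84 on arrays 3 and 4, against 3.97 to 4.62 on the primary arrays (difference 4.26, SE 0.79, adjusted p = 0.0214, not passing without any of the 4 primary arrays, up to 0.0677). Mest, an imprinted gene of mesoderm, read 4.50, 4.96, 3.80 and 4.00 against 7.17, 7.97, 7.51 and 8.38 (difference 3.44, SE 0.44, adjusted p = 0.00234). Prrx2, a homeobox factor of embryonic mesenchyme, was the 1 member of 43 homeobox genes outside the Hox clusters that passed, at 6.93, 6.78, 5.84 and 6.45 against 10.22, 9.62, 9.16 and 10.10 (difference 3.28, SE 0.36, adjusted p = 0.000902). None of 39 Hox genes passed.

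The lists of the Wnt pathway differed in their share of calls, from 0% of ligands and 3.57% of targets to 8.7% of receptors and 18.8% of secreted antagonists, against 1.8% of all genes. None of 19 Wnt ligands passed, with a median difference of 0.08; the smallest p was that of Wnt9a, at 4.78, 4.28, 4.90 and 4.96 against 5.54, 5.54, 5.19 and 5.81 (difference 0.79, SE 0.20, adjusted p = 0.0736). Of 28 canonical targets and feedback inhibitors 1 rose, Nkd2, and none fell, with a median difference of 0.03, and the list mean was 5.53 to 5.58 on the primary and 5.79 to 5.95 on the recurrent arrays. Nkd2 binds Dishevelled and dampens Wnt signalling. It read 4.09, 3.65, 3.80 and 4.27 on the primary arrays and 7.42, 8.01, 8.23 and 8.79 on the recurrent arrays, a difference of 4.16 (SE 0.26, adjusted p = 1.18e-05), and the residual values, 9.65, 10.14 and 9.95, were higher still. Axin2, a widely used readout of the pathway, read 7.19, 7.47, 7.25 and 7.04 against 6.96, 6.96, 7.17 and 7.19 (difference -0.16, SE 0.17, adjusted p = 0.752), with overlapping groups.

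Among 16 secreted Wnt antagonists 2 rose and 1 fell. Dkk2, which binds the Lrp co-receptors, read 6.85, 7.10, 6.72 and 7.06 against 9.36, 8.28, 9.32 and 8.87 (difference 2.02, SE 0.25, adjusted p = 0.00171), while the residual samples read 5.19, 6.05 and 5.50, under the primary range. Sfrp2, a Frizzled-like decoy, rose, at 9.89 to 10.30 on primary and 11.12 to 11.89 on recurrent arrays (difference 1.29, SE 0.20, adjusted p = 0.00698). Its relative Sfrp1 fell, with a primary range of 7.22 to 7.60 and recurrent values of 6.57, 6.51, 5.66 and 4.73 (difference -1.64, SE 0.36, adjusted p = 0.0447), a call lost without any primary array or recurrent array 3 (adjusted p up to 0.122) and in a fit of the 8 arrays alone (0.0744). Of 23 receptors and co-receptors Lgr6, a receptor for R-spondins, fell from 8.27, 7.85, 8.26 and 8.24 to 6.44, 7.26, 5.88 and 6.32 (difference -1.68, SE 0.25, adjusted p = 0.00599), and the R-spondin gene Rspo4, also on this list, rose by 0.70 (SE 0.12, adjusted p = 0.0144), not passing without primary array 3 (0.05). Notum, which removes the lipid of Wnt proteins, was high on recurrent array 1 alone, at 7.90 against 4.93 to 5.61 on the other recurrent arrays and 4.93 to 5.47 on the primary arrays.

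Receptor tyrosine kinases changed in both directions. Of 46 such genes 3 rose and 2 fell (10.9% called, against 1.8% of all genes), with a median difference of -0.05. Ddr2, a receptor for fibrillar collagen, read 4.39, 3.79, 4.16 and 4.85 against 7.02, 6.61, 8.36 and 8.47 (difference 3.32, SE 0.42, adjusted p = 0.00198). Pdgfrb, the PDGF receptor of mesenchymal cells, read 7.57, 7.71, 7.75 and 7.65 against 9.92, 9.87, 9.79 and 10.26 (difference 2.29, SE 0.14, adjusted p = 8.81e-06). Both were shared; for Ddr2 recurrent arrays 3 and 4 were the higher ones, and for Pdgfrb the 4 recurrent arrays lay close together.

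Of the ErbB receptors, Egfr read 6.37, 5.56, 6.44 and 6.03 against 7.65, 7.47, 8.13 and 8.44 (difference 1.82, SE 0.24, adjusted p = 0.00261), while Erbb2, the co-receptor of the family, read 9.74, 9.44, 9.85 and 9.73 against 6.84, 7.48, 6.93 and 7.14 (difference -2.59, SE 0.17, adjusted p = 2.33e-05). These receptors thus moved in opposite directions on every recurrent array. The ligands of the Egfr that passed all fell: Epgn from 7.83, 7.59, 7.65 and 7.88 to 6.14, 5.42, 5.59 and 5.13 (difference -2.17, SE 0.19, adjusted p = 0.0002), Tgfa with a difference of -1.43 (SE 0.17, adjusted p = 0.00171) and Areg with a difference of -1.33 (SE 0.26, adjusted p = 0.0257). Areg, amphiregulin, stayed bright at 9.80, 10.06, 9.21 and 8.98 after 10.84, 10.51, 11.07 and 10.95, and its call was lost without any of 5 arrays (primary 1, 3 or 4, recurrent 3 or 4, adjusted p up to 0.0812). Of 44 growth factor ligands in all, 1 was higher and 3 were lower (9.09% called); the higher gene was Igf1, insulin-like growth factor 1, at 6.65, 6.25, 6.84 and 6.54 against 8.11, 8.60, 8.22 and 9.89 (difference 2.13, SE 0.33, adjusted p = 0.00701).

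Feedback genes of the FGF and MAP kinase pathway, which are read as a sign of its activity, gave 1 rise and 1 fall among 26 genes (7.69% called, against 1.8% of all genes), with a median of -0.02. Spry1, Sprouty 1, read 5.87, 6.36, 6.47 and 6.31 against 8.93, 8.72, 7.93 and 8.40 (difference 2.24, SE 0.21, adjusted p = 0.000331). The phosphatase Dusp7 fell by 0.77 on the log2 scale (SE 0.16, adjusted p = 0.0301), not without any of 5 arrays (primary 2, 3 or 4, recurrent 3 or 4, up to 0.0964, nor in a fit of the 8 arrays alone, 0.0537).

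In the TGF-beta pathway 3 of 25 genes rose and 1 fell (16% called, against 1.8% of all genes), with a median of 0.41. Id3, an inhibitor of basic helix-loop-helix factors that BMP and TGF-beta signals control, read 8.37, 8.90, 8.09 and 9.05 against 10.94, 10.37, 10.39 and 10.49 (difference 1.94, SE 0.22, adjusted p = 0.000955). Tgfb3 itself rose, at 7.94 to 8.23 on primary and 9.23 to 9.40 on recurrent arrays (difference 1.28, SE 0.17, adjusted p = 0.00327), and Ltbp2, a latent TGF-beta binding protein of elastic fibres, rose by 1.44 (SE 0.23, adjusted p = 0.0084). Fst, the activin antagonist follistatin, fell by 1.18 on the log2 scale (SE 0.24, adjusted p = 0.0329), a call lost without any array except recurrent array 2 (up to 0.101) and in a fit of the 8 arrays alone (0.0651).

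BMP antagonists moved both ways. Of 27 BMP ligands, antagonists and targets 3 rose, Id3 among them, and 3 fell (22.2% called). Chrdl1, chordin-like 1, rose from 3.17, 3.55, 3.94 and 4.10 to 7.42, 6.12, 5.62 and 5.78 (difference 2.55, SE 0.34, adjusted p = 0.00332). Grem1, gremlin 1, fell from 9.07, 8.89, 8.93 and 8.89 to 6.46, 6.25, 6.50 and 7.69 (difference -2.22, SE 0.28, adjusted p = 0.00193), and read 4.13, 3.58 and 3.43 in the residual samples. Fstl1, a follistatin-like glycoprotein, rose by 2.57 (SE 0.49, adjusted p = 0.0256), not passing without any primary array or recurrent array 4 (up to 0.0798), nor in a fit of the 8 arrays alone (0.0568). In the Hedgehog list 1 of 14 genes passed, the co-receptor Cdon, at 7.16, 6.80, 7.76 and 7.49 against 9.18, 9.22, 9.18 and 9.67 (difference 2.01, SE 0.21, adjusted p = 0.000588). In the Notch list 1 of 25 passed, the co-activator Maml2, which rose by 1.18 (SE 0.18, adjusted p = 0.00611). Of 22 targets and factors of YAP and TEAD 1 rose, the matrix gene Ccdc80 (difference 2.63, SE 0.43, adjusted p = 0.0103), and 2 fell, the surface nucleotidase Nt5e (difference -1.29, SE 0.21, adjusted p = 0.0109) and the factor Tead4 (difference -1.54, SE 0.33, adjusted p = 0.0424, lost without any array except recurrent array 2, up to 0.117, and in a fit of the 8 arrays alone, 0.0877).

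The shared falls held several epithelial surface genes. Of 28 luminal markers 4 were lower (14.3%, against 0.986% of all genes) and none was higher, with a median difference of -0.09, and the list mean was 5.56 to 5.60 on the primary and 5.05 to 5.32 on the recurrent arrays. Cd24a, a surface glycoprotein used to sort mammary epithelium, read 7.21, 8.29, 8.34 and 7.83 against 5.03, 4.36, 4.61 and 3.45 (difference -3.56, SE 0.45, adjusted p = 0.00203). The keratin Krt7 read 6.25, 6.11, 6.27 and 6.16 against 3.51, 4.72, 4.21 and 3.14 (difference -2.31, SE 0.42, adjusted p = 0.0206), a call lost without any primary array or recurrent array 1 (up to 0.0666). Cldn3, a tight junction claudin, read 8.13, 8.47, 8.14 and 8.22 against 5.90, 6.01, 6.88 and 5.41 (difference -2.19, SE 0.31, adjusted p = 0.00395). The residual samples read 6.10, 8.08 and 6.42 for Cd24a and 5.33, 7.26 and 5.38 for Krt7, all above the highest recurrent array.

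Of 38 epithelial junction genes 3 fell (7.89%, against 0.986% of all genes) and none rose, with a median of 0.00. Besides Cldn3 these were F11r, the junctional adhesion molecule A, at 9.10, 9.19, 9.16 and 8.85 against 6.81, 7.62, 7.51 and 5.97 (difference -2.10, SE 0.31, adjusted p = 0.00608), and Cldn12, which fell by 0.62 on the log2 scale (SE 0.13, adjusted p = 0.0358, lost without any array except recurrent array 4, up to 0.107, and in a fit of the 8 arrays alone, 0.0602). Cdh1, E-cadherin, did not pass, at 6.64, 6.63, 6.33 and 6.34 against 6.41, 7.36, 5.34 and 4.84, a difference of -0.50 (SE 0.47, adjusted p = 0.73): recurrent array 2 lay above and arrays 3 and 4 below the primary range. Among 25 basal and myoepithelial markers Mme and Egfr rose (8%, against 0.818% of all genes) and none fell. The median difference of this list was -0.03, with 11 of 25 differences above 0. Its mean was 5.09 to 5.35 on the primary and 5.44 to 5.89 on the recurrent arrays.

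Of 23 transcription factors and markers of epithelial-mesenchymal transition 3 rose and 1 fell (17.4% called, against 1.8% of all genes), with a median of 0.19. Snai2, Slug, a repressor of epithelial genes, read 4.32, 5.35, 4.61 and 4.78 against 8.40, 6.06, 8.30 and 7.10, higher on every recurrent array but by unequal amounts (difference 2.70, SE 0.56, adjusted p = 0.0369, lost without any array except recurrent array 2, up to 0.113). The others that rose were Ddr2, given above, and Tcf4, a basic helix-loop-helix factor, by 0.84 (SE 0.17, adjusted p = 0.0314, lost without any of 5 arrays, primary 2, 3 or 4 and recurrent 3 or 4, up to 0.0906). Cdh2, N-cadherin, the mesenchymal cadherin, fell from 8.40, 7.88, 8.42 and 8.40 to 6.99, 7.42, 7.47 and 6.38 (difference -1.21, SE 0.23, adjusted p = 0.0231, lost without primary array 1, 3 or 4 or recurrent array 1, up to 0.0762, and in a fit of the 8 arrays alone, 0.0522). The members thus did not all move one way.

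Large shared falls were also seen in genes of other roles. Slitrk6, a neuronal adhesion protein, read 7.21, 6.78, 7.47 and 7.46 against 2.17, 2.41, 3.23 and 4.56 (difference -4.14, SE 0.42, adjusted p = 0.000588). Tmem45a, a membrane protein of keratinising epithelium, read 8.44, 8.61, 8.35 and 8.20 against 4.80, 4.35, 3.78 and 4.14 (difference -4.13, SE 0.21, adjusted p = 3.58e-06). In Slitrk6 recurrent array 4 was the highest of the 4, and in Tmem45a the recurrent arrays lay close together.

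Crct1, a gene of the cornified envelope region, read 7.40, 8.05, 7.17 and 6.33 against 2.68, 2.77, 3.52 and 5.17 (difference -3.70, SE 0.51, adjusted p = 0.00391). Htr1b, a serotonin receptor, read 8.40, 8.64, 8.20 and 8.33 against 4.69, 4.49, 6.10 and 6.25 (difference -3.01, SE 0.36, adjusted p = 0.00147), and Ptpn5, a tyrosine phosphatase best known from the brain, read 7.50, 8.17, 7.53 and 7.67 against 4.33, 4.33, 4.96 and 5.73 (difference -2.88, SE 0.28, adjusted p = 0.000526). Recurrent arrays 3 and 4 were the higher ones in these genes. Mcpt8, a protease of basophils, read 6.14, 7.25, 6.83 and 7.03 against 4.25, 4.58, 2.92 and 3.29 (difference -3.05, SE 0.34, adjusted p = 0.00102), and Pilrb1, an activating receptor of myeloid cells, read 5.63, 7.54, 5.61 and 6.76 against 2.79, 3.71, 3.32 and 3.83 (difference -2.97, SE 0.46, adjusted p = 0.00698). These are genes of blood cells, and the mean of 27 macrophage and monocyte markers beside them was 5.98 to 6.90 on primary and 5.54 to 6.59 on recurrent arrays, overlapping, with a median difference of -0.47 and 5 of 27 differences above 0. The part of such cells in the result was not tested. Pi15, a peptidase inhibitor, fell by 3.21 on the log2 scale (SE 0.60, adjusted p = 0.0229) and Gda, guanine deaminase, by 2.96 (SE 0.55, adjusted p = 0.0214). Both calls were lost without any primary array (up to 0.0765 and 0.0699), and that of Gda without recurrent array 3 and in a fit of the 8 arrays alone (0.0513) as well.

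Of 47 genes of G2 phase and mitosis 2 fell (4.26%, against 0.986% of all genes) and none rose: the checkpoint kinase Bub1b, at 6.91, 6.63, 6.76 and 6.71 against 5.85, 5.73, 5.92 and 5.96 (difference -0.89, SE 0.12, adjusted p = 0.00328), and the spindle protein Tpx2, at 7.89, 8.13, 7.64 and 8.09 against 7.03, 7.10, 6.95 and 7.22 (difference -0.86, SE 0.13, adjusted p = 0.00625). The median of the list was -0.40, and its mean was 7.48 to 7.66 on the primary, 6.95 to 7.34 on the recurrent and 4.48 to 4.74 on the residual arrays. None of 44 genes of S phase and replication passed (median -0.13, and Pcna, the sliding clamp, at 11.27 to 11.46 against 10.80 to 11.28). The mean of the mitotic list was lower on all 4 recurrent arrays than on any primary array.

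None of 20 glycolysis genes passed, although the median was -0.48 and the list mean was 7.43 to 7.64 on the primary and 6.71 to 7.21 on the recurrent arrays. The lactate transporter Slc16a1 read 9.07, 9.23, 9.29 and 9.18 against 8.66, 8.39, 6.95 and 7.29 (difference -1.37, SE 0.33, adjusted p = 0.0669), and the glucose transporter Slc2a3 read 7.03, 6.51, 7.02 and 6.71 against 5.50, 6.82, 4.63 and 4.35 (difference -1.49, SE 0.42, adjusted p = 0.117). Without recurrent array 1 or 2 Slc16a1 passed (adjusted p = 0.0231 and 0.0497), and without recurrent array 2 Slc2a3 passed (0.00351). Of 42 oxidative phosphorylation genes and 40 genes of ribosome biogenesis none passed, with medians of -0.14 and -0.24. Among 31 targets of p53 only the kinase Plk3 passed, with a fall of 0.97 on the log2 scale (SE 0.16, adjusted p = 0.0102). None of 20 Bcl2 family genes and none of 25 CDK inhibitors and quiescence genes passed. Bcl2l11, which encodes the death-promoting protein Bim, read 6.89 to 7.18 against 8.40, 8.11, 7.51 and 7.37 (difference 0.79, SE 0.21, adjusted p = 0.0895, and 0.0459 without recurrent array 4).

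The residual samples share the model and the withdrawal but are compared here by their values alone, since a comparison of either later stage uses the same primary arrays. Of the 56 shared higher genes, the residual mean lay at or past the nearest recurrent array for 47 and between the groups for 6. Ddr2, among the 6, read 4.37, 5.41 and 4.77, a mean at about the highest primary array and far below the recurrent arrays. For 3 genes, among them Dkk2, the residual mean lay within or on the other side of the primary range. Of the 47 shared lower genes it lay at or past the nearest recurrent array for 28, between for 13, among them Erbb2 at 7.69, 8.01 and 7.43, and within or on the other side of the primary range for 6, among them F11r at 9.40, 8.99 and 8.66.

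Genes of some recurrent arrays were mostly genes of a single array. Of those in the higher direction 33 were of recurrent array 1 alone, 8 of array 2, 60 of array 3 and 30 of array 4, and the next largest set was the 14 genes of arrays 3 and 4 together. In the lower direction 15, 4, 7 and 14 were of arrays 1, 2, 3 and 4 alone and 10 of arrays 3 and 4 together. For orientation, 40 to 125 genes lay at least 2 log2 units above the primary range on each recurrent array, whereas 0 to 6 genes lay as far above the other 3 primary arrays on each primary array. The recurrent counts include genes high on all 4 recurrent arrays, so the counts are not alike. On recurrent array 2 there were 40 such genes, but 11 higher genes of some arrays. Genes of some arrays were picked by their values, so the values that follow describe them and are no test.

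**Figure D2:**
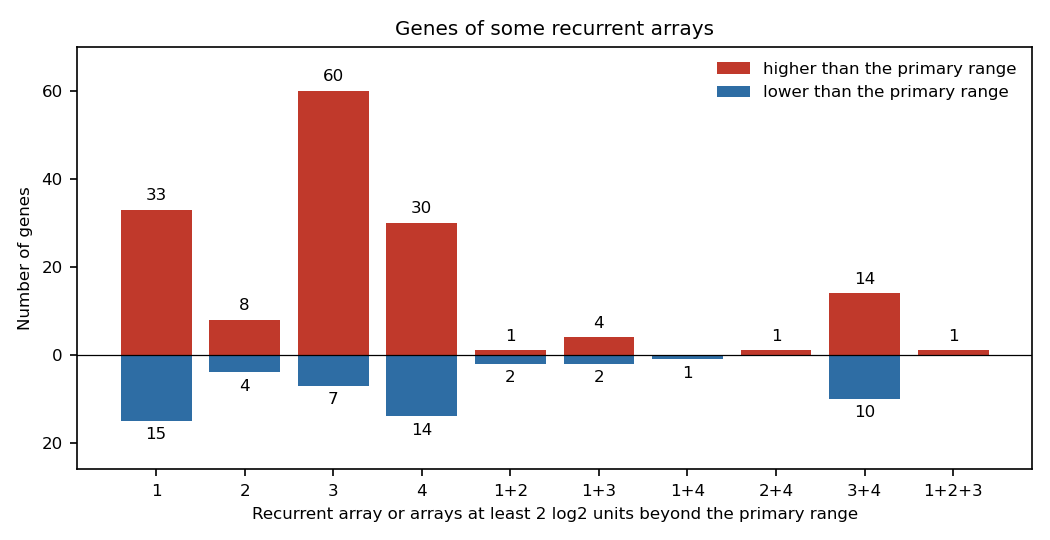
Number of genes (vertical axis) that lay at least 2 log2 units above (red, upward) or below (blue, downward) the range of the 4 primary arrays on the recurrent array or arrays named on the horizontal axis, with at least 1 other recurrent array near or inside that range. Single arrays hold most genes, led by array 3 with 60 higher genes, and the set of arrays 3 and 4 holds 14 higher and 10 lower genes.

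On recurrent array 1 the genes farthest above the primary range were Spon2, Nrn1, Sned1 and Thbs2. Spon2, the matrix protein spondin 2, read 8.55 on array 1, then 5.75, 5.14 and 4.88, against 3.07 to 4.54 on the primary arrays. Nrn1, neuritin, a surface protein of neurons, read 8.77, 5.65, 3.77 and 3.73 against 4.24 to 5.40. Sned1, a matrix glycoprotein, read 9.50, 7.50, 4.39 and 4.89 against 5.23 to 6.23, so array 2 also lay above and arrays 3 and 4 below the primary range. Thbs2, thrombospondin 2, read 9.52, 6.75, 7.34 and 7.25 against 5.21 to 6.36. Growth signalling genes of this array were Fgf8, a fibroblast growth factor that is often activated in Wnt1 tumours of the mouse, at 6.80, 5.74, 3.73 and 2.85 against 3.09 to 3.75, and Gas1, a Hedgehog co-receptor linked to growth arrest, at 8.54, 7.02, 6.77 and 5.98 against 5.82 to 6.06. Itga8, an integrin chain of mesenchyme, read 6.28, 5.27, 4.01 and 3.47 against 2.97 to 3.55. In all of these genes array 1 was the highest.

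On recurrent array 3 Flrt2, Cdh5, Lrrc15 and Cnn1 lay farthest above. Flrt2, a fibronectin-leucine-rich transmembrane protein, read 2.53, 3.08, 8.78 and 3.15 against 2.52 to 3.13 on the primary arrays, so array 3 alone lay above background. Cdh5, VE-cadherin, the adhesion molecule of endothelium, read 4.97, 5.09, 10.13 and 4.66 against 4.33 to 5.72. The list of 22 endothelial markers, Cdh5 included, did not stand out on this array, with a mean of 4.00, 4.25, 4.12 and 4.10 on the recurrent arrays and 3.76 to 3.90 on the primary arrays. Lrrc15, a surface protein of activated fibroblasts, read 5.37, 4.96, 9.15 and 6.57 against 3.87 to 4.92, and Cnn1, calponin 1, of smooth muscle and myoepithelium, read 2.96, 3.32, 7.50 and 3.90 against 3.01 to 3.36. Array 3 also held Cdh11, the cadherin of mesenchyme, at 4.90, 4.61, 7.43 and 5.12 against 3.93 to 4.84, the growth factor Nrg1 at 4.80, 4.07, 7.23 and 4.41 against 3.25 to 4.38, and the hypoxia-induced carbonic anhydrase Car9 at 3.34, 3.73, 8.17 and 5.04 against 4.01 to 4.51. In 26 hypoxia-inducible genes none passed, and the list mean was 6.97, 7.46, 8.10 and 7.99 on the recurrent arrays against 7.48 to 7.84, with array 1 below and arrays 3 and 4 above the primary range.

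On recurrent array 4 Lsm8, Thbs4, Col12a1 and Clic5 lay farthest above. Lsm8, a splicing protein that all cells use, read 7.83, 7.63, 7.93 and 11.78 against 7.85 to 8.01, and its SD over the primary arrays was 0.08 (n = 4). Thbs4, thrombospondin 4, read 3.85, 3.66, 3.85 and 7.65 against 3.67 to 3.91, and Clic5, a chloride channel protein, read 2.59, 3.07, 4.66 and 7.03 against 3.07 to 3.58. Array 4 was alone in Lsm8 and Thbs4, whereas array 3 also lay above the primary range in Clic5, and all 4 recurrent arrays did in Col12a1, given above.

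Recurrent arrays 3 and 4 shared high values of Met, the receptor tyrosine kinase of hepatocyte growth factor, and of its neighbours on chromosome 6. Met read 9.57, 9.63, 12.44 and 12.46 on the recurrent arrays against 9.23, 8.81, 9.31 and 9.30 on the primary arrays and 7.76, 8.17 and 7.41 on the residual arrays. Arrays 3 and 4 lay 3.27 and 3.29 above the primary mean, arrays 1 and 2 0.41 and 0.47 above it, and over all 4 arrays the gene did not pass (difference 1.86, SE 0.62, adjusted p = 0.179). Capza2 and St7, the genes that follow Met in chromosome order, lay 2.78 and 2.79, and 4.03 and 4.27, above the primary mean on arrays 3 and 4. In these 3 genes arrays 1 and 2 lay within 0.47 of the primary mean.

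The stretches of high genes were not the same on the 2 arrays. On array 3 the genes before Met were high too: Tes lay 3.14 above, Cav2 3.04 and Cav1, caveolin 1, 2.06, while Lsm8 and Ing3, after St7, lay 0.01 and 0.35 above. On array 4 Tes lay 0.27, Cav2 0.81 and Cav1 1.05 above the primary mean, while Lsm8 lay 3.85, Ing3 3.11 and Fam3c 2.66 above. Cped1, which lies within this stretch, rose on all 4 arrays, at 7.43, 5.99, 6.02 and 10.09 against 3.64 to 4.22 (difference 3.38, SE 0.73, adjusted p = 0.0431, lost without any primary array or recurrent array 1, up to 0.117, and in a fit of the 8 arrays alone, 0.0817), and Tspan12, between Lsm8 and Ing3, differed from the primary mean by -2.23, -0.80, -2.05 and -0.18 on arrays 1 to 4. Met and its neighbours as a list, 14 genes, had a mean of 5.71 to 5.79 on the primary arrays, 5.67 and 5.75 on recurrent arrays 1 and 2 and 7.03 and 6.83 on arrays 3 and 4, and none passed. Hgf, the ligand of Met, read 3.93, 4.38, 7.19 and 6.36 on the recurrent arrays against 3.23 to 4.56, above the primary range on the same arrays 3 and 4 (adjusted p = 0.202).

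**Figure D3:**
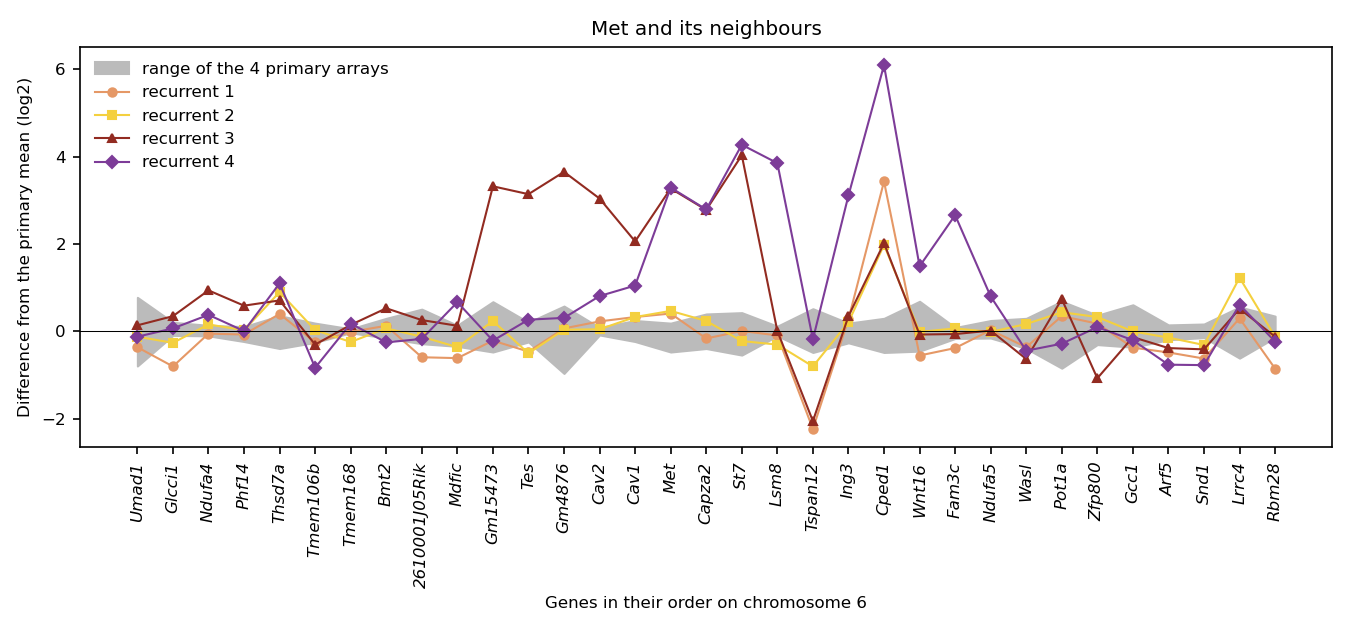
Difference from the primary mean (log2; for a primary array, from the mean of the other 3) of genes above the olfactory level, in their order on chromosome 6 around Met; lines are the 4 recurrent arrays and the grey band is the range of the 4 primary arrays. Recurrent array 3 is high from Gm15473 to St7 and array 4 from Met to Fam3c apart from Tspan12, with Met (3.27 and 3.29), Capza2 and St7 high on both.

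A search for other stretches took the 12968 named genes above the olfactory level in chromosome order. A run was called where the median difference of 9 neighbours from the primary mean was at least 1 log2 unit on an array. Only windows that started at adjacent genes were joined, and the median over a joined run can be smaller. Runs could therefore overlap and were then counted apart, as were those from Foxq1 to Nqo2 and from Serpinb9 to Psmg4 on array 4. The counts of runs are thus not counts of separate stretches. Recurrent array 1 had 1 run, array 2 none, array 3 5 higher and 6 lower runs, and array 4 8 higher and 2 lower runs. The 4 primary arrays, each set against the other 3, had none. The longest were the 17 genes from Tmem168 to Wnt16 on array 3 and the 17 from Gm15473 to Pot1a on array 4, both on chromosome 6 and both holding Met. On array 4 another 17 genes on chromosome 5, from Ankrd17 to Cdkl2, were lower, with a median of -1.01, and array 3 had a lower run of 10 genes within it, from Cxcl5 to Btc, with a median of -0.97. The run holds chemokine genes and Epgn, Areg and the other genes of their cluster; Cxcl3 read 5.54, 6.95, 5.77 and 3.72 on the recurrent arrays against 6.19 to 7.76, and Cxcl5 7.48, 8.06, 7.44 and 5.34 against 7.50 to 9.27. A run of 16 genes from Col1a2 to Glcci1 on chromosome 6 was higher on array 4, led by Sdhaf3, at 6.35, 6.34, 6.83 and 9.14 against 6.45 to 7.03. A run of 15 from Zmat2 to Pcdhga1 on chromosome 18 was also higher there, led by clustered protocadherins such as Pcdhb13.

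Whole chromosomes were looked at after the runs had been seen. Over genes above the olfactory level, the chromosome medians of the 4 primary arrays lay between -0.05 and 0.08, those of recurrent array 1 between -0.10 and 0.16 and those of array 2 between -0.13 and 0.12. On recurrent array 3 chromosome 2 had a median of -0.46 over 1046 genes, of which 19.8% lay above the primary mean, and chromosome 13 a median of 0.33 over 461 genes, of which 78.7% did. Chromosome 13 lay above the primary range of medians on the other recurrent arrays too, at 0.16, 0.12 and 0.11 on arrays 1, 2 and 4, with 65.1%, 63.1% and 62.3% of genes above the primary mean. On recurrent array 3 chromosomes 3 and 4 followed at -0.23 and 0.19. On array 4 chromosome 2 had a median of -0.23 and chromosome 16 of -0.21. The values given for arrays 3 and 4 lie beyond every chromosome median of the primary arrays. No measurement of DNA was used here, and a change of copy number was not tested.

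**Figure D4:**
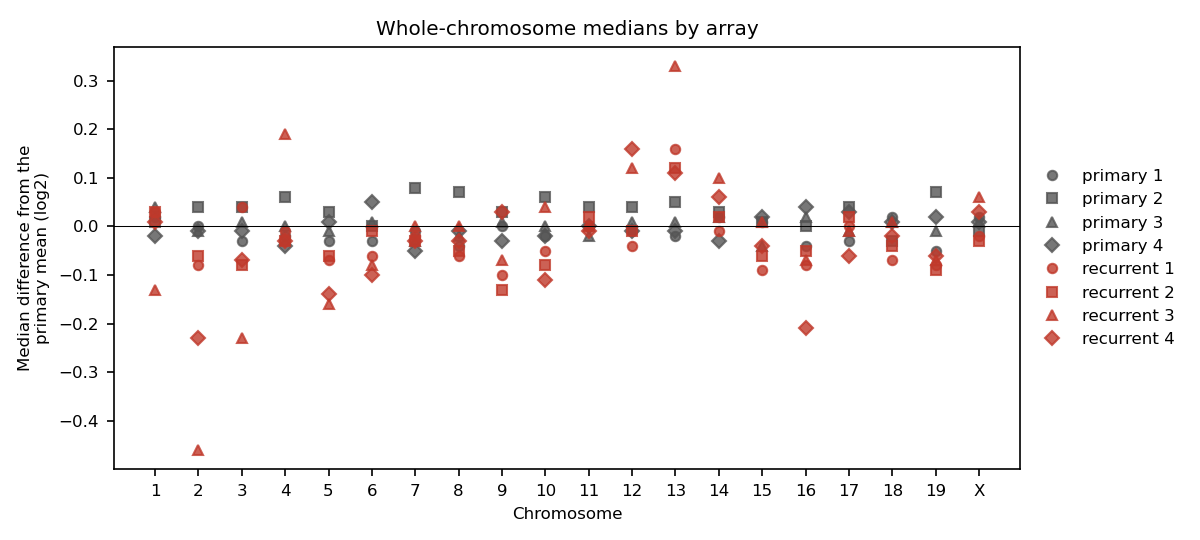
Median difference from the primary mean (log2; for a primary array, from the mean of the other 3) over genes above the olfactory level, by chromosome; grey points are the 4 primary and red points the 4 recurrent arrays. Primary arrays stay between -0.05 and 0.08, and recurrent array 3 reads -0.46 on chromosome 2 and 0.33 on chromosome 13.

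Recurrent arrays 3 and 4 also read low together in several secreted genes. S100a8, a calcium-binding protein of granulocytes and of stressed epithelium, read 11.81, 10.51, 6.04 and 4.34 against 11.51 to 12.03 on the primary arrays, and its partner S100a9 read 6.04, 6.48, 3.16 and 3.96 against 5.89 to 7.28. Lcn2, lipocalin 2, read 10.14, 11.70, 5.07 and 4.60 against 8.98 to 10.03, so arrays 1 and 2 lay above and arrays 3 and 4 below the primary range. Serpine2, protease nexin 1, read 10.29, 10.93, 8.0 and 6.39 against 10.56 to 10.86. None passed over all 4 arrays (adjusted p = 0.23 for S100a8, 0.276 for S100a9, 0.679 for Lcn2 and 0.307 for Serpine2). The 15 granulocyte markers, S100a8 and S100a9 among them, had a mean of 4.21, 4.51, 3.55 and 3.75 on the recurrent arrays and 4.23 to 4.44 on the primary arrays; the part of such cells was not tested.

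List means of antigen presentation and interferon genes were higher on arrays 3 and 4 than on the other arrays, while 4 of 43 interferon genes and 1 of 21 antigen presentation genes counted as genes of some arrays. The mean of the 43 interferon-stimulated genes was 5.94, 5.90, 6.92 and 6.51 on the recurrent arrays against 5.82 to 6.04, with a median difference of 0.35 and 1 gene called (2.33%, against 1.8% of all genes). The gene called was Cxcl10, a chemokine that attracts T cells, at 7.07, 5.96, 8.52 and 7.07 against 4.79 to 5.47 (difference 2.14, SE 0.42, adjusted p = 0.0269, lost without any primary array or recurrent array 1 or 4, up to 0.0861, and in a fit of the 8 arrays alone, 0.0589). On array 3 Oas1g, an antiviral enzyme, read 6.38 against 2.59 to 3.04 on the primary arrays and 1.95, 2.55 and 4.08 on the other recurrent arrays, and Ifi44 6.77 against 3.67 to 4.23 and 3.78, 3.76 and 4.98.

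The mean of 21 genes of MHC class I and antigen processing was 7.51, 7.69, 8.36 and 8.29 on the recurrent arrays against 7.56 to 7.71, and none passed. H2-Q7, a class I gene of a family with near-identical members, so that its signal may be shared, read 2.92, 2.64, 5.86 and 6.44 against 2.84 to 3.45. Psmb9, an immunoproteasome subunit, read 9.25, 9.87, 10.56 and 10.65 against 8.48 to 9.41 (difference 1.04, SE 0.29, adjusted p = 0.114, and 0.0263 without recurrent array 1). Il15, a cytokine of natural killer cells, read 4.65, 4.24, 6.70 and 6.46 against 2.69 to 3.90 (adjusted p = 0.0859, and 0.0329 without recurrent array 2). Adamts5, a protease that cuts aggrecan and versican, had the same pattern, at 5.01, 4.77, 7.09 and 7.23 against 3.60 to 4.50 (adjusted p = 0.077, and 0.0496 and 0.0288 without recurrent array 1 or 2). Ecscr, an endothelial surface gene, read 4.34, 5.14, 6.41 and 8.73 against 3.79 to 4.32.

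**Figure D5:**
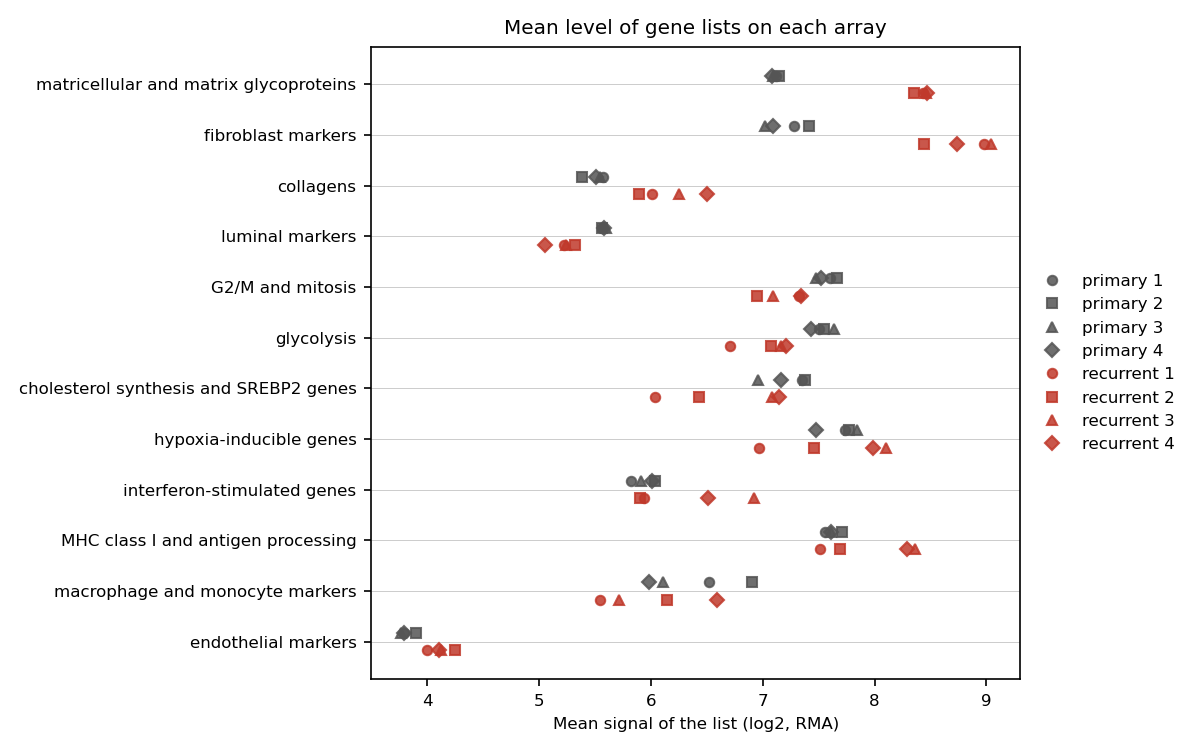
Mean log2 signal of gene lists on each primary (grey) and recurrent (red) array; the marker shape gives the replicate number, and the horizontal axis does not start at 0. The matricellular list reads 8.35 to 8.47 on all 4 recurrent arrays against 7.08 to 7.15, whereas the interferon list is high on recurrent arrays 3 (6.92) and 4 (6.51) and the cholesterol list low on arrays 1 (6.04) and 2 (6.43).

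As a pair, arrays 1 and 2 stood apart in 1 higher and 2 lower genes, against 14 and 10 for arrays 3 and 4. Tnc, tenascin C, a matrix glycoprotein of tumours and wounds, read 4.84, 7.08, 11.13 and 9.13 on the recurrent arrays against 10.02 to 10.51 on the primary and 10.68 to 11.33 on the residual arrays (adjusted p = 0.336). In Tnc array 4 also lay below the primary range, and array 3 lay above it. Of 23 cholesterol synthesis and SREBP2 genes none passed, with a median of -0.50. The list mean was 6.04 and 6.43 on recurrent arrays 1 and 2, 7.08 and 7.15 on arrays 3 and 4 and 6.96 to 7.38 on the primary arrays, so arrays 1 and 2 alone lay below the primary range. Fdps, farnesyl diphosphate synthase, read 4.12, 4.95, 5.63 and 5.16 against 5.66 to 6.36 (difference -1.05, SE 0.27, adjusted p = 0.0854, and 0.0358 without recurrent array 3).

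Of 39 chemokines and cytokines 4 rose (10.3%, against 0.818% of all genes) and none fell: Cxcl10, given above, Cx3cl1, fractalkine, at 6.58, 6.54, 6.68 and 6.61 against 9.35, 8.90, 7.61 and 7.53 (difference 1.74, SE 0.34, adjusted p = 0.0277), Il34, a ligand of the macrophage receptor Csf1r, by 1.38 (SE 0.23, adjusted p = 0.0112), and Ccl8 by 1.34 (SE 0.27, adjusted p = 0.0329). Cx3cl1 lost its call without any primary array or recurrent array 2 (up to 0.0834) and in a fit of the 8 arrays alone (0.0678), and Ccl8 without any of 6 arrays, primary 1, 3 or 4 and recurrent 2, 3 or 4 (up to 0.101) and in a fit of the 8 arrays alone (0.0744). Of 21 integrins Itga11, a collagen receptor of fibroblasts, rose by 1.94 (SE 0.34, adjusted p = 0.0148, and 0.0509 without primary array 2), and Itgb7, of leukocytes, fell by 0.92 on the log2 scale (SE 0.19, adjusted p = 0.0384, lost without any of 6 arrays, primary 1, 2 or 4 and recurrent 1, 3 or 4, up to 0.112, and in a fit of the 8 arrays alone, 0.0783). Of 27 complement and acute phase genes the protease C1s1 rose by 1.76 (SE 0.34, adjusted p = 0.0257, lost without any primary array or recurrent array 2, up to 0.0852). Of 17 milk protein and secretory genes Muc15 (difference -1.48, SE 0.32, adjusted p = 0.0407) and Xdh (difference -0.96, SE 0.17, adjusted p = 0.0141) fell, with Muc15 lost without any of 5 arrays, primary 3 or 4 and recurrent 2, 3 or 4 (up to 0.111) and in a fit of the 8 arrays alone (0.0737), and Xdh without primary array 1 (0.0527).

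Markers of other cell types gave calls in some lists, from 3.7% of macrophage, 6.67% of granulocyte and 9.09% of pericyte markers to 16.7% of Schwann cell and neural markers, against 1.8% of all genes. None of 22 endothelial, 24 lymphocyte, 14 adipocyte, 16 muscle and 5 erythroid markers passed. Of 11 pericyte markers Pdgfrb passed, and the list mean was 4.00 to 4.08 against 4.38 to 4.45. The median difference of this list was 0.13, with 8 of 11 differences above 0, and only 3 of 11 members lay above the olfactory level. Of 27 macrophage and monocyte markers Cd14 fell by 1.00 on the log2 scale (SE 0.19, adjusted p = 0.0244, lost without primary array 1, 2 or 3, up to 0.083). Of 15 granulocyte markers Mmp9, also counted among the matrix proteases, rose. The median difference of the granulocyte list was -0.06, with 4 of 15 differences above 0. Of 12 Schwann cell and neural markers S100b rose, at 4.96 to 6.55 on primary and 7.12 to 9.22 on recurrent arrays (difference 2.34, SE 0.43, adjusted p = 0.0206, lost without primary array 3 or 4, up to 0.0676), and Tubb3 fell by 1.73 on the log2 scale (SE 0.33, adjusted p = 0.0257, lost without primary array 1, 2 or 4, up to 0.0813, and in a fit of the 8 arrays alone, 0.0567).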

How the data were processed

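RNA was extracted with Trizol, labelled as biotinylated cRNA and hybridised to Affymetrix arrays, per the labels' protocols. The deposited table holds log2 values that the authors made by RMA. R 3.0.2 was used, per the submitters' processing notes, and the sources used here do not name the probe set annotation. RMA sets all arrays to similar distributions, so a change of total RNA per cell is not seen. Of 24479 probe sets, 642 stayed unnamed and were not analysed here, 125 were named by the platform annotation alone, and the rest through RefSeq by Entrez number.

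limma 3.58.1 (R 4.3.3) was fitted to all 11 arrays with 3 groups (8 residual degrees of freedom), and genes were called at a two-sided Benjamini-Hochberg adjusted p under 0.05. On simulated data for this comparison (23835 genes, 200 changed), 73% of 2-fold changes and 95% of 4-fold changes were recovered, with 10 false calls. The simulation gave each gene normal values with the same spread in all groups. The recurrent arrays spread more than the primary arrays, so these rates may not hold for the data. An adjusted p without an array comes from the same fit to 10 arrays. Tables and figures were made with Python 3.11.15. The alternatives were other scalings, filters, limma settings, distances and windows, the replicate number as a block, and each array left out.

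The rule for named genes took Wnt1, the 12 largest shared rises and falls, the 4 farthest genes of each array set holding at least 20, up to 4 called genes per list or the 2 of smallest p, up to 3 genes of some arrays per list, the 3 brightest cell type markers, and 3 genes of each of the 5 longest runs. Krt8, Krt5, Epcam, Cdh1, Axin2, Ecm2, Nol8, Emilin1, Upp1, Capza2, Cav2, Ing3, Fam3c and Tspan12 were named after their values were seen. Members, gene lists and rules were chosen with earlier results of these data known. Results of 2 genes that the rule names are not reported here. Precision is limited by the number of arrays. Promoter windows matched 17776 of the genes by symbol.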

Additional observations from a re-analysis of the deposited data

Results flagged for a closer look

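In groups of 4 arrays a value was picked out where its gap to the nearest other array exceeded 0.829 of the group's range, which chance alone gives in about 1 in 20 groups. This held for 13 of 286 gene groups and 6 of 100 list groups. On the recurrent arrays, a single array stood apart in Flrt2 (8.78 on array 3, others 2.53 to 3.15), Cdh5 (10.13 on array 3, others 4.66 to 5.09), Lsm8 (11.78 on array 4, others 7.63 to 7.93) and Thbs4 (7.65 on array 4, others 3.66 to 3.85), all of which had been chosen as genes of some arrays. Omd was low on recurrent array 3 (5.22, others 7.09 to 7.45), Ccl8 was low on array 1 (6.82, others 7.85 to 7.92), Cdon was high on array 4 (9.67, others 9.18 to 9.22), and Epcam, under background, was low on array 2 (3.32, others 3.43 to 3.45).

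On the primary arrays, array 2 was low in Lgr6 (7.85, others 8.24 to 8.27), Cdh2 (7.88, others 8.40 to 8.42) and Met (8.81, others 9.23 to 9.31). Primary array 4 was low in Sfrp1 (7.22, others 7.60) and high in Sned1 (6.23, others 5.23 to 5.27). Among list means, primary array 2 was low for canonical Wnt targets (5.53, others 5.58), Met and its neighbours (5.71, others 5.78 to 5.79) and the Notch pathway (5.21, others 5.34 to 5.37), and high for oxidative phosphorylation (9.41, others 9.13 to 9.16). Primary array 1 was low for Wnt ligands (3.95, others 4.01 to 4.02), and recurrent array 2 was high for Schwann cell and neural markers (5.39, others 5.21 to 5.23).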

How the results depend on the processing

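Leaving out 1 array gave between 203 and 420 called genes in place of 430, with 203 to 225 when the array was a primary one. An adjusted p under 0.01 left 142. Fitting the 8 arrays alone (345), centring (500), quantile normalization (406), equal spread (404), the filter on dim genes (546), a trended robust fit (445) and array weights (580) stayed within 1.5 times. With the replicate number as a block (replicate block) 277 genes passed, 251 of them among the 430. Primary and recurrent samples of the same number did not deviate together (correlations -0.0012, -0.0805, 0.0122 and -0.0215). The labels do not say whether equal numbers pair samples, and correlations of deviations over all genes cannot settle it. The 103 shared genes became 426 with no minimum distance and 22 with a distance of 2, and 90 to 132 without 1 array. The 207 entries of some arrays (1 gene counts in both directions) became 457 at a distance of 1.5 and 57 at 3, and 218 to 238 without 1 primary array. The 22 runs on recurrent arrays, with overlapping runs counted apart, became 41 with windows of 7 genes and 6 with windows of 15. With windows of 7 genes primary array 2 also had 1 higher and 1 lower run. Of 81 called genes in the text 46 kept their call under every setting, and none of the 143 genes in the text reversed; the 8-array fit ended 16 calls, each given beside its gene. The replicate block ended 16, those of Mmp11, Apod, Areg, Dusp7, Fst, Tead4, Itgb7, Snai2, Cdh2, Tcf4, Muc15, Cxcl10, Il34, Ccl8, C1s1 and Cd14 (adjusted p between 0.0507 for Cdh2 and 0.0971 for Tcf4). The cause of these changes was not tested. Genes near the olfactory level, such as Ogn in primary cells, have folds limited by background.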
